A study of Mus musculus with 7 samples.

Results

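The clustered replication-dependent histone genes were followed in RNA from adult mouse hippocampal neurospheres with and without deletion of Med23, a subunit of the Mediator complex that links transcription factors to RNA polymerase II. Members were all rows of the expression table whose symbol began with Hist1h, Hist2h, Hist3h or Hist4h, which gave 68 of 24346 genes: 54 of the Hist1 cluster on chromosome 13, 10 of Hist2 on chromosome 3, 3 of Hist3 on chromosome 11 and 1 of Hist4 on chromosome 6. By family they were 6 H1, 18 H2A, 19 H2B, 12 H3 and 13 H4 genes. Each of the 7 libraries came from the primary neurosphere culture of a single mouse on the C57/BL6 background. The 3 Med23 CKO mice (KO_117, KO_214 and KO_218) carried Nestin-CreER and 2 floxed Med23 alleles, and the 4 littermate controls (WT_215, WT_116, WT_213 and WT_220), labelled wild type, were littermates of the genotypes Med23 flox/+ and Med23 flox/flox. Both groups were given tamoxifen by oral gavage at 200 mg/kg once daily for 5 days, and hippocampi were taken at 2 months of age. A recovery of 3 to 4 weeks after tamoxifen is listed for every sample. The age at tamoxifen differs between the sample labels and the methods, which place it earlier for cultures. CreER was driven by Nestin, so cells that did not express Nestin when tamoxifen was given kept Med23. Within each group, values are listed throughout in the order in which its mice are named here.

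Clustered histone genes supply the core histones H2A, H2B, H3 and H4 and the linker histone H1 that package DNA as it is copied. Their mRNAs are made mostly in S phase and usually end at a short stem-loop bound by SLBP in place of a poly(A) tail, while histone variants such as H2A.Z and H3.3 come from ordinary polyadenylated genes outside the clusters and are made throughout the cell cycle. Some clustered genes also give longer, polyadenylated transcripts, often in cells that are leaving the cell cycle. The libraries were made with the NEBNext Ultra kit, and whether RNA was selected by poly(A) tail or by removal of ribosomal RNA is not given in the sources used here. The values are therefore levels of the histone RNA that entered the libraries, and a low value cannot be read as little histone mRNA in the cell. In bulk cultures, fewer cells of a type and less RNA per cell cannot be told apart.

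The stem-loop itself is shown for 6 members on which the results below turn, since it separates the processed form of a histone mRNA from a longer form. A 16-base stem-loop pattern was searched in the GENCODE M21 transcripts (GRCm38), and the capitals mark the match:
Hist1h1c: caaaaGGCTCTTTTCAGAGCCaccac
Hist3h2a: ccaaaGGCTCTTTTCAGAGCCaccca
Hist3h2ba: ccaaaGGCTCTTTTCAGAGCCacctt
Hist1h4i: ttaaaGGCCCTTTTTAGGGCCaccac
Hist1h4h: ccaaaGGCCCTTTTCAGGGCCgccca
Hist1h3c: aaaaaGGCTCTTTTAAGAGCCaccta
The annotated transcript ran 840 bases past this stem-loop in Hist1h1c, 1643 bases in Hist3h2a, 169 bases in Hist3h2ba and 330 bases in Hist1h4i. It ended 46 bases past it in Hist1h4h and 74 bases past it in Hist1h3c. A match was found in 46 of the 68 members, against 99 of 21877 protein-coding genes (0.453%), members included. Of the 22 members without a match, 16 had gene models with fewer than 30 bases after the stop codon, so the stretch that would hold a stem-loop lay outside the model. Hist1h2bc and Hist2h2be had no match in 3′ untranslated regions of 742 and 2192 bases. The only model of Hist1h2bc is spliced from 2 exons. Genomic sequence was not searched, so a stem-loop outside that model would be missed.

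Few members contributed most of the signal. Levels are in FPKM, which scales fragments by transcript length and by sequencing depth. The mean over the 7 libraries was at least 0.5 FPKM for 24 of the 68 members and at least 2 FPKM for 8, and the median of the 68 means was 0.308 FPKM. Values of 0 were listed in at least 1 library for 52 members and in every library for 8. The 5 members with means of 20 FPKM or more were Hist1h2bc, Hist3h2a, Hist1h1c, Hist3h2ba and Hist1h4i, and together they held 78.9 to 91.6% of the summed FPKM of all 68. No H3 gene was among them: the highest, Hist1h3c, had a mean of 0.907 FPKM.

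**Figure D1:**
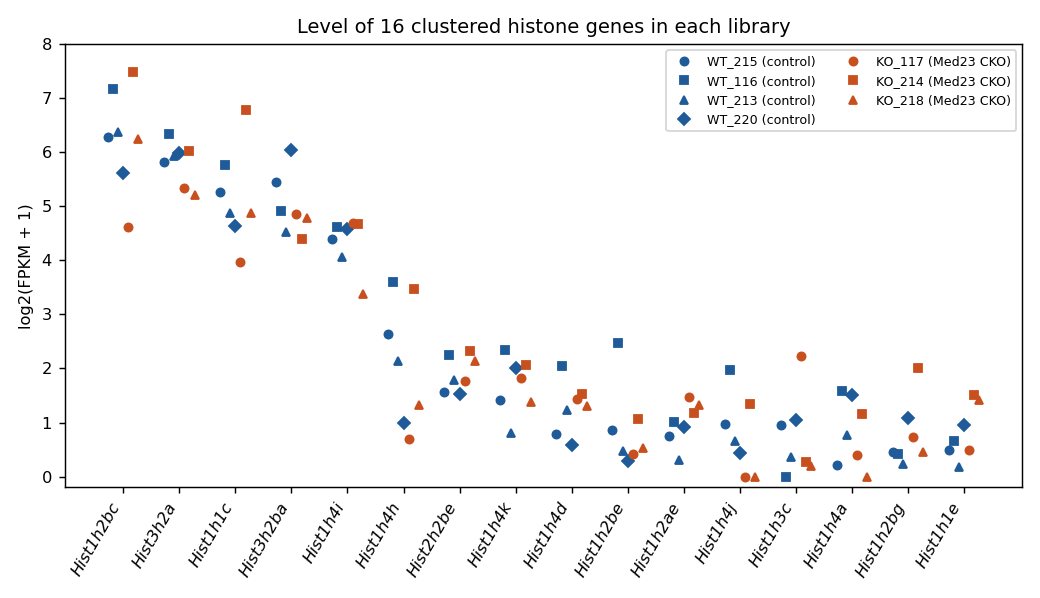
Level of the 16 members named by rule in each library, as log2(FPKM + 1), ordered by mean level; blue symbols are the 4 control libraries and orange symbols the 3 Med23 CKO libraries, 1 point a library. A few members stand far above the rest, and KO_214 and KO_117 lie at opposite ends for Hist1h2bc and Hist1h1c.

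Mean levels differed between classes of annotated transcript end. The ends are those of GENCODE M21, and the annotation with which the authors counted is not known. Members also differ in how much sequence they share with other copies, and the part of either point was not tested. Members were sorted into 23 whose model ended within 100 bases of the stem-loop, 23 whose model ran 100 bases or more past it and 22 with no match; the limit was set with the values known, and the counts are a description. A mean of at least 0.5 FPKM was reached by 5 of the first 23, 13 of the second 23 and 6 of the 22, and a mean of at least 2 FPKM by 1, 4 and 3. The hexamers AATAAA and ATTAAA, which direct cleavage and polyadenylation, were then searched in the last 50 bases of each member's transcripts, on the transcript strand. They were present in 17 members and absent from 51, and 50.2% of 58797 protein-coding transcripts held 1 of them. That share counts single transcripts, whereas a member counted if any of its transcripts held the signal. Of the 51, 21 had models ending near the stem-loop and 19 had no stem-loop match, many of them with few bases after the stop codon. A signal past the end of such a model could not be found, so absence refers to the model only. Of the 8 members with a mean of at least 2 FPKM, 6 held the signal: Hist3h2a, Hist1h1c, Hist3h2ba, Hist1h4i, Hist1h4h and Hist2h2be. The other two were Hist1h2bc and Hist1h4k, whose model stopped at the end of the coding sequence.

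**Figure D2:**
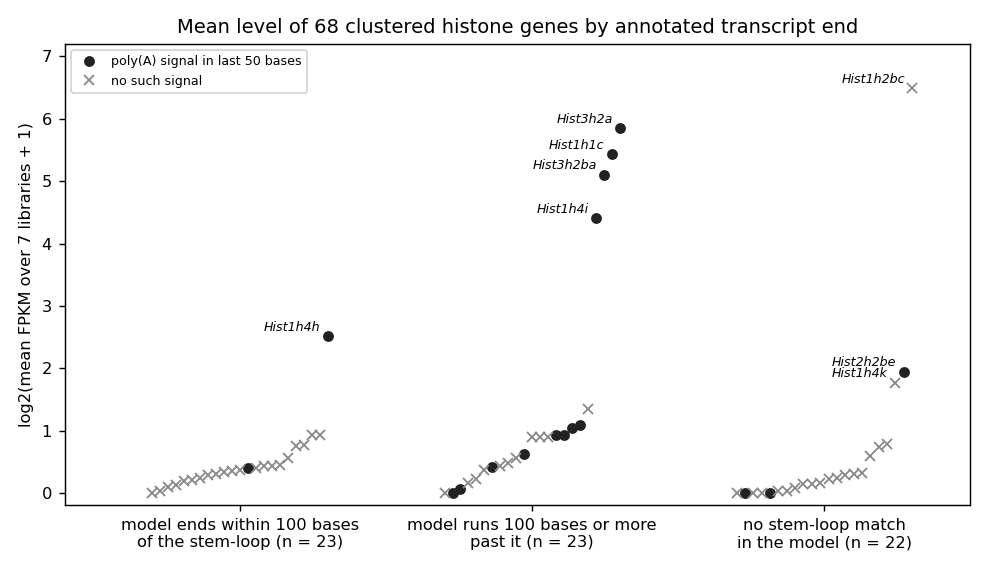
Mean level of each of the 68 members over the 7 libraries, as log2(mean FPKM + 1), in 3 classes of annotated transcript end; filled circles mark a poly(A) signal in the last 50 bases of a transcript and crosses its absence, and members with a mean of at least 2 FPKM are named. The 4 high members of the middle class all carry the signal, and Hist1h2bc is high without it.

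H2A and H2B genes of the clusters are arranged largely as divergent pairs, which start close together and are read in opposite directions from a shared promoter. There were 13 such pairs among the members. The sequences between the RefSeq start sites (GRCm38.p6, plus strand) are shown for 3 pairs because each had a partner among the 8 members with a mean of at least 2 FPKM. Capitals mark the TATA element TATAAA, the CCAAT box CCAAT and the octamer ATTTGCAT, on either strand, with no overlap between the marked motifs. The first, chr13:23683960-23684198, lies between Hist1h2ac on the left and Hist1h2bc on the right, the second, chr3:96220881-96221071, between Hist2h2ac and Hist2h2be, and the third, chr11:58954513-58954684, between Hist3h2bb-ps and Hist3h2a:
Hist1h2ac-Hist1h2bc: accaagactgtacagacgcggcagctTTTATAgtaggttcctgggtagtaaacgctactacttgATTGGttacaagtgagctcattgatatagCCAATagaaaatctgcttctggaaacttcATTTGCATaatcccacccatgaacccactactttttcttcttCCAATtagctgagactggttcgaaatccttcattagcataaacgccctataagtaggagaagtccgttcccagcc
Hist2h2ac-Hist2h2be: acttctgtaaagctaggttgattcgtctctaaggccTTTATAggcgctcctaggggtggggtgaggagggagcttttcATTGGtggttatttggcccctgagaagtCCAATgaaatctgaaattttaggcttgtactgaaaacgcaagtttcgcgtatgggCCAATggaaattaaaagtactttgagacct
Hist3h2bb-ps-Hist3h2a: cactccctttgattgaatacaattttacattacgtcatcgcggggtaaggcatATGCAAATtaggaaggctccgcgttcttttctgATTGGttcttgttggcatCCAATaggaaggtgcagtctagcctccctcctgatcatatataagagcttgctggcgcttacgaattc
The first sequence held 3 CCAAT boxes, 1 TATAAA and 1 ATTTGCAT, the second 3 CCAAT boxes and 1 TATAAA, and the third 2 CCAAT boxes and 1 ATTTGCAT. The second pair does not lack the octamer. An ATTTGCAT of the Hist2h2ac promoter lies just past the right end of the second sequence, which was cut at the RefSeq start of Hist2h2be. In GENCODE that gene starts further right, beyond the octamer. Across the 63 RefSeq promoters of members, from 250 bases before to 50 bases after each start and on either strand, CCAAT was present in 85.7%, TATAAA in 55.6% and ATTTGCAT in 22.2%. Over all 32851 promoters these shares were 37.4%, 13.6% and 1.74%. ATTTGCAT was found in 38.9% of H2A and 41.2% of H2B promoters and in none of the 6 H1, 10 H3 and 12 H4 promoters, and CCAAT was found in every promoter of the other families but in 25% of those of H4. A match is a run of letters only.

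Of the 13 H2A-H2B pairs, 9 had both partners above 0, with mean levels 1.22-fold to 262-fold apart. In 4 of these 9 the ratio was at most 2.06, among them Hist1h2ae and Hist1h2bg at 1.22. The pairs shown were picked for a partner with a high level, so a wide ratio is partly built into that choice. Hist1h2bc averaged 89.1 FPKM and its partner Hist1h2ac 0.480 FPKM, a ratio of 186. Hist3h2a averaged 56.7 FPKM and the pseudogene Hist3h2bb-ps 0.217 FPKM, a ratio of 262. In the Hist2 cluster, Hist2h2be averaged 2.84 FPKM against 0.324 FPKM for Hist2h2ac, a ratio of 8.79. FPKM is spread over the length of each gene model, and near-identical copies can trade reads, so the low partner of each pair is uncertain.

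Before the groups were compared, the deletion and the makeup of the cultures were looked at. Med23 was listed at 11.4, 10.3, 12.9 and 10.1 FPKM in the controls and at 9.97, 9.27 and 8.12 FPKM in KO_117, KO_214 and KO_218. The 3 values after deletion lay under the 4 others, and the difference was -0.26 on the log2(FPKM + 1) scale (exact permutation test over 35 splits, two-sided p = 0.0571, where the smallest p possible is 0.0286). Cre removes only some exons of Med23, and reads from the rest of the gene still count, so this level is a weak check of the deletion. KO_214 stood apart in sums of marker genes. There 12 markers of microglia and macrophages summed to 974 FPKM, against 33.9 to 215.2 FPKM elsewhere. The sum of 8 endothelial markers was 123 against 6.6 to 69.7 FPKM. For 9 markers of mural cells and fibroblasts it was 356 against 48.4 to 97.7 FPKM. Not every microglia and macrophage marker followed its sum. Tmem119, Aif1, Csf1r and Itgam were highest in KO_214. Cx3cr1, however, was listed at 0.157 FPKM in KO_214 and 0.782 FPKM in WT_213. P2ry12 was listed at 1.24 FPKM in KO_214 and 1.60 FPKM in WT_116. None of these markers was listed at 0 in any library. Cspg4, in the list of mural cells and fibroblasts, is also a marker of the oligodendrocyte lineage. It made 51.0 of the 59.7 FPKM of that sum in WT_220 and 47.2 of 53.7 FPKM in KO_117. In KO_214 it was listed at 12.9 FPKM. The 12 neural stem and progenitor markers summed to 1912 to 3921 FPKM in the controls and to 2097 to 3912 FPKM in the Med23 CKO libraries. The part of other cell types in the histone levels was not tested, and values without KO_214 are given where a result rests on it.

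Med23 CKO and control libraries were compared by limma on log2(FPKM + 1) for the 24 members with a mean of at least 0.5 FPKM, fitted together with all 14151 genes above that level. No member passed at a Benjamini-Hochberg adjusted p under 0.05 (0% of all genes tested did). At an unadjusted p under 0.05, 1 member was higher in Med23 CKO, Hist1h2ae, where 0.502% of all genes were, and 0 were lower, where 0.996% were. The mean was higher in Med23 CKO for 14 members and lower for 10, and over all genes tested it was higher for 6196 and lower for 7955. The median log2 fold change was 0.07 over the members and -0.03 over all genes tested. The members' median was -0.15 without KO_214 and 0.20 without KO_218. Estimates ran from -0.56 for Hist1h4j to 0.57 for Hist1h2ae. The standard error had a median of 0.40 over the members and 0.28 over all genes tested, so changes of the size seen here could not be told from the spread between mice.

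**Figure D3:**
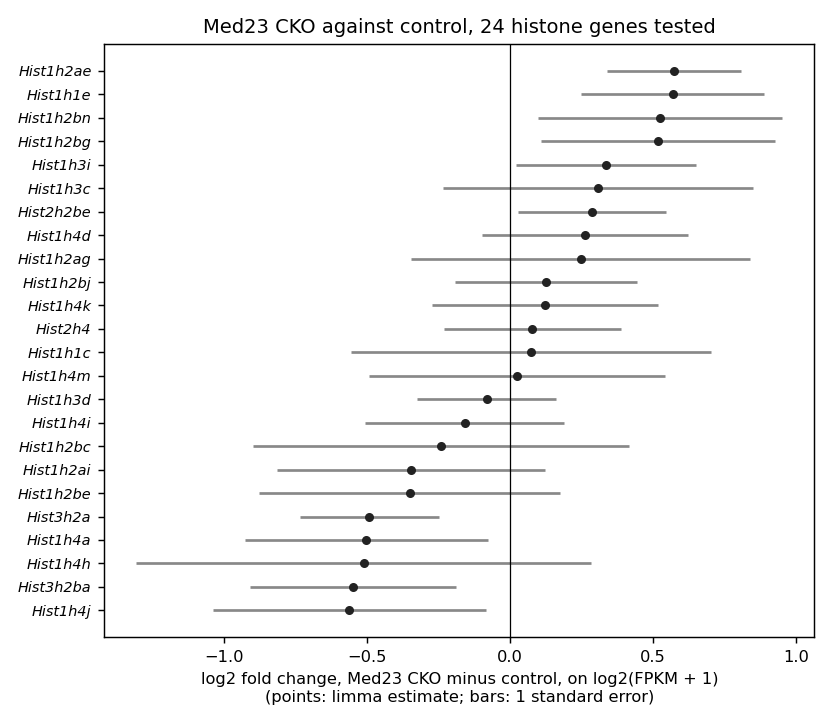
Log2 fold change of Med23 CKO against control for the 24 members tested, on the log2(FPKM + 1) scale; points are limma estimates from 4 control and 3 Med23 CKO libraries, bars are 1 standard error, and the line marks 0. The estimates run from -0.56 to 0.57 on both sides of 0.

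Hist1h2ae, an H2A gene of the Hist1 cluster at chr13:23570517-23571220, was the member set apart by group. It was listed at 0.693, 1.02, 0.238 and 0.894 FPKM in the controls and at 1.78, 1.27 and 1.49 FPKM in KO_117, KO_214 and KO_218. The deletion group lay wholly above the controls, which held for 1 of the 24 members and for 0.784% of all genes tested, while no member lay wholly below them (1.53% of all genes did). The log2 fold change was 0.57 (SE 0.23, unadjusted limma p = 0.0418, adjusted p = 0.9999; exact permutation p = 0.0571). The levels are low, 43.2% of the 50-base stretches of its transcript occur in other clustered histone transcripts, and the unadjusted p rose past 0.05 under several alternatives, among them without WT_215, WT_213, KO_117 or KO_218.

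The H1 linker histones were carried by Hist1h1c (chr13:23738808-23740367), which encodes H1.2. It was listed at 37.2, 53.5, 28.4 and 23.99 FPKM in the controls and at 14.6, 109 and 28.4 FPKM in KO_117, KO_214 and KO_218. The lowest and the highest library were both Med23 CKO, 7.46-fold apart, and the controls lay between them. Group means were 35.7 ± 13.0 FPKM (SD, n = 4) and 50.7 ± 51.0 FPKM (SD, n = 3), with a log2 fold change of 0.07 (SE 0.63, exact permutation p = 0.914) that was -0.71 without KO_214. Hist1h1e, encoding H1.4, had 0.135 to 0.950 FPKM in the controls and 0.409, 1.86 and 1.67 FPKM in KO_117, KO_214 and KO_218, with overlapping groups and a log2 fold change of 0.57 (SE 0.32, exact permutation p = 0.171). The estimate was 0.89 without KO_117 and 0.91 with array weights, and in both the unadjusted limma p was under 0.05. The testis H1 gene Hist1h1t was listed at 0.157 FPKM in WT_220, 0.187 FPKM in KO_214 and 0 elsewhere, and the testis genes Hist1h2aa and Hist1h2ba at 0 in every library.

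Among H2B genes, Hist1h2bc (chr13:23684199-23692908, a model with 2 exons) had the highest mean of all members. It was listed at 76.5, 142, 81.7 and 48.0 FPKM in the controls and at 23.4, 177 and 75.2 FPKM in KO_117, KO_214 and KO_218. As with Hist1h1c, KO_117 was lowest and KO_214 highest, 7.56-fold apart, with the controls inside that range and WT_116 next to KO_214. Its log2 fold change was -0.24 (SE 0.66, exact permutation p = 0.8286), ranging from -0.92 without KO_214 to 0.51 without KO_117. Hist3h2ba, the H2B gene of the Hist3 cluster (chr11:58948920-58949533), took another course, with 42.6, 29.0, 21.99 and 64.8 FPKM in the controls and 28.0, 20.002 and 26.7 FPKM in KO_117, KO_214 and KO_218. WT_220 was its highest library and KO_214 its lowest, and the groups overlapped, with a log2 fold change of -0.55 (SE 0.36, exact permutation p = 0.229). It was -0.79 without WT_213, where the unadjusted limma p was under 0.05, and -0.28 without WT_220.

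The remaining H2B genes were lower. Hist2h2be, an H2B variant gene studied in olfactory neurons, was listed at 1.97, 3.78, 2.46 and 1.90 FPKM in the controls and at 2.39, 4.01 and 3.39 FPKM in KO_117, KO_214 and KO_218. The groups overlapped and the log2 fold change was 0.29 (SE 0.26, exact permutation p = 0.286). Hist1h2be ranged from 0.216 FPKM in WT_220 to 4.53 FPKM in WT_116, and Hist1h2bg from 0.175 FPKM in WT_213 to 3.03 FPKM in KO_214. In both, 1 library stood well above the other 6.

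Hist3h2a (chr11:58954685-58956830), the only H2A gene with a mean above 2 FPKM, had the smallest spread of the 5 high members, 2.24-fold from lowest to highest library. It was listed at 55.3, 80.2, 60.05 and 62.1 FPKM in the controls and at 39.5, 64.3 and 35.9 FPKM in KO_117, KO_214 and KO_218. KO_117 and KO_218 lay under all controls and KO_214 lay above all controls but WT_116, so the groups overlapped. Means were 64.4 ± 10.9 FPKM (SD, n = 4) and 46.5 ± 15.4 FPKM (SD, n = 3), and the log2 fold change was -0.49 (SE 0.24, limma p = 0.0796, exact permutation p = 0.171). It was -0.74 without KO_214, where the unadjusted p was under 0.05. Only 2.00% of its 50-base stretches occur in other clustered histone transcripts.

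H4 genes encode identical or nearly identical proteins from many copies, and 3 of them had means of at least 2 FPKM. Hist1h4i was listed at 19.98, 23.6, 15.8 and 22.8 FPKM in the controls and at 24.9, 24.6 and 9.45 FPKM in KO_117, KO_214 and KO_218. Here KO_117 and KO_214 were both at the top, level with the controls, and KO_218 was lowest, for a log2 fold change of -0.16 (SE 0.35, exact permutation p = 0.857) that was 0.27 without KO_218. Hist1h4h was listed at 5.25, 11.2, 3.38 and 0.990 FPKM in the same controls and at 0.620, 10.01 and 1.52 FPKM in KO_117, KO_214 and KO_218. It spanned 18.0-fold, with WT_116 and KO_214 highest and KO_117 and WT_220 lowest, and its log2 fold change of -0.51 had the largest SE of the members tested, 0.79, and ran from -1.33 without KO_214 to 0.054 without KO_117. Hist1h4k ranged from 0.738 FPKM in WT_213 to 4.06 FPKM in WT_116, with both groups inside that range and 71.5% of its 50-base stretches shared with other copies, which makes its level uncertain. Hist1h4d, Hist1h4j and Hist1h4a were also highest in WT_116, at 3.15, 2.91 and 1.99 FPKM.

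H3 genes were the lowest family. Hist1h3c was listed at 0.936, 0, 0.294 and 1.06 FPKM in the controls and at 3.70, 0.208 and 0.143 FPKM in KO_117, KO_214 and KO_218. KO_117 stood alone at the top and WT_116 at the bottom, the reverse of Hist1h4h at both ends, and the log2 fold change of 0.31 (SE 0.54, exact permutation p = 0.771) became -0.36 without KO_117. Hist1h2ag, an H2A gene that falls outside the rule for named members and was picked after its values were seen, was likewise listed at 4.31 FPKM in KO_117 and at 0 to 0.768 FPKM elsewhere.

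Sums over a family are less affected than single genes when near-identical copies trade reads, though gene models differ in length and some copies share stretches with another family. The H1 sum was 38.5, 54.3, 29.1 and 26.2 FPKM in the controls and 15.9, 112 and 30.7 FPKM in KO_117, KO_214 and KO_218. The H2B sum ran from 58.7 FPKM in KO_117 to 209 FPKM in KO_214 with the controls at 110 to 184 FPKM, and the H4 sum from 15.1 FPKM in KO_218 to 51.6 FPKM in WT_116. The H2A sum was 61.7, 84.5, 63.2 and 67.3 FPKM in the controls and 52.3, 68.5 and 38.7 FPKM in KO_117, KO_214 and KO_218. The H3 sum was 3.61, 2.63, 1.42 and 2.75 FPKM in the controls and 6.48, 2.49 and 3.29 FPKM in KO_117, KO_214 and KO_218. The groups overlapped in every family. The log2 ratios of group means were 0.51 for H1, -0.38 for H2A, -0.09 for H2B, 0.65 for H3 and -0.12 for H4, and leaving out 1 mouse at a time moved each of them. H1 was -0.67 without KO_214, H2B ran from -0.67 without KO_214 to 0.25 without KO_117, and H4 from -0.54 without KO_214 to 0.21 without KO_218. H3 fell to 0.15 without KO_117, and H2A ran from -0.60 without KO_214 to -0.20 without KO_218.

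The members tested were most often highest in WT_116, a control library. Of the 24 members tested, 11 were highest in WT_116 (45.8%), against 15.4% of all genes tested. KO_214 was highest for 6 members (25.0%), near its share of 25.4% over all genes tested. The 44 members with a mean under 0.5 FPKM behaved otherwise, with their largest sum in KO_117, at 13.0 FPKM, and 5.93 and 8.87 FPKM in WT_116 and KO_214. Members of this low group, several of which lack any base beyond the stop codon in their model, were at or near 0 in many libraries and were not compared one by one.

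Genes of S phase followed an order of their own among the libraries. A list of 40 genes of S phase and DNA replication averaged 4.83, 3.63, 4.07 and 4.95 in the controls and 5.31, 3.07 and 4.07 in KO_117, KO_214 and KO_218, as log2(FPKM + 1). KO_117 was thus highest and KO_214 lowest, followed by WT_116. Hist1h1c, Hist1h2bc and Hist1h4h had KO_117 and WT_220 as their lowest libraries and KO_214 and WT_116 as their highest, the reverse of the S phase list at both ends. Hist1h3c, the H3 sum and the sum of the low members had KO_117 at the top, as the S phase list did. Hist1h3c itself made 3.70 of the 6.48 FPKM of the H3 sum there. At the other end they differed from the S phase list, whose lowest library was KO_214. Their lowest libraries were WT_116 for Hist1h3c, WT_213 for the H3 sum and KO_218 for the low members. The 7 libraries also differed in other markers. The means of the microglia and macrophage list and of the endothelial list were highest in KO_214 and lowest in KO_117 and WT_220. The S phase order and the cell makeup of the cultures therefore cannot be told apart here. These orders were noticed in the data and are given with no test.

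**Figure D4:**
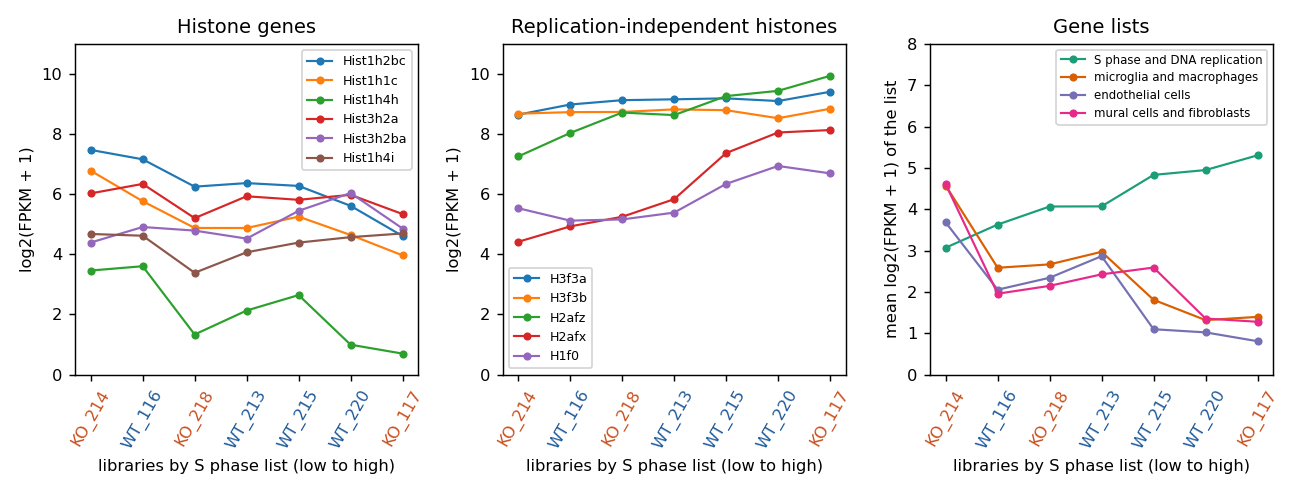
Libraries ordered from left to right by the mean of the S phase list; the left panel shows 6 clustered histone genes and the middle panel 5 replication-independent histone genes as log2(FPKM + 1), and the right panel the mean log2(FPKM + 1) of 4 gene lists, 1 point a library, with control names in blue and Med23 CKO names in orange. Hist1h2bc, Hist1h1c and Hist1h4h run down from KO_214 to KO_117 while H2afz and H2afx run up.

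The share of the clustered genes differed between the families for which replication-independent genes were also summed. H3f3a and H3f3b, which encode the variant H3.3, were listed at 400 to 679 FPKM and 368 to 459 FPKM, while the 12 clustered H3 genes together made 0.134% (WT_213) to 0.514% (KO_117) of the summed FPKM of clustered H3 genes, H3f3a, H3f3b and Cenpa. The 18 clustered H2A genes made 3.23% (KO_117) to 16.7% (KO_214) of the sum with 6 H2A variant genes, and the 6 clustered H1 genes 7.94% (KO_117) to 68.3% (KO_214) of the sum with H1f0 and H1fx. H2afz, encoding H2A.Z, was listed at 615, 262, 396 and 694 FPKM in the controls and at 981, 152 and 420 FPKM in KO_117, KO_214 and KO_218. H2afx, encoding H2A.X, was listed at 164, 29.5, 56.1 and 265 FPKM in those controls and at 280, 20.4 and 37.0 FPKM in KO_117, KO_214 and KO_218. Both had the order of the S phase list at its ends, and H2afx spanned 13.8-fold.

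None of the wider lists held a gene past an unadjusted limma p under 0.05. Of 11 replication-independent histone genes, 1 had a higher and 10 a lower mean in Med23 CKO, with a median log2 fold change of -0.30 against -0.03 over all genes tested. Over all genes tested, 6196 had a higher and 7955 a lower mean. Of 19 tested genes for transcription, 3′ end processing and decay of histone mRNA, 4 were higher and 15 lower, with a median of -0.07. Slbp, whose product binds the stem-loop, was listed at 36.7, 16.8, 28.3 and 39.2 FPKM in the controls and at 49.8, 14.8 and 27.1 FPKM in KO_117, KO_214 and KO_218. It was highest in KO_117 and lowest in KO_214, with a log2 fold change of -0.08 (SE 0.44). Npat, the coactivator of clustered histone genes, and Casp8ap2, which encodes the histone locus protein FLASH, had log2 fold changes of 0.05 (SE 0.22) and 0.08 (SE 0.23). Of 22 histone chaperone genes, 2 were higher and 20 lower, with a median of -0.18, and of the 40 S phase genes 4 were higher and 36 lower, with a median of -0.19 and a median SE of 0.58. All 4 medians turned positive without KO_214, to 0.071, 0.017, 0.12 and 0.30 in that order, so their direction rests on 1 mouse. Members of a list vary together across libraries, so these counts are not independent of one another.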

How the data were processed

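RNA was measured in 7 libraries, and each was matched to group and mouse number through its sample title; 0 sample columns were left unmapped. The authors trimmed adapters, mapped with TopHat to the mm10 genome and deposited, for each library, the FPKM that Cuffdiff gave per gene. The table also holds the authors' own comparison (group means, a log2 fold change, a test score, p-value and q-value), which was not used. The annotation and strand setting of their counting are not given in the sources used here. Low FPKM values gave no common step in any of 21 pairs of libraries (highest bin of width 0.05 log2 units, 4.57% of genes), so no reads were recovered, depth is unknown, and the number of mice limits precision.

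Genes with a mean of at least 0.5 FPKM were tested as log2(FPKM + 1) with limma 3.58.1 (R 4.3.3; trended, two-sided, Benjamini-Hochberg over 14151 genes). Fold changes on this scale understate the change of low genes. The script was tested on simulated data with changed genes in known number. Single-gene exact permutation tests covered all 35 splits. The closest members to the 0.5 FPKM limit were Hist1h2ac (0.480) and Hist1h3i (0.503). GENCODE M21 and RefSeq gave transcripts, start sites and promoters; all 68 members matched both, and 62 had a RefSeq promoter (63 rows).

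Named members were the 12 of highest mean, the highest of each family, any with an unadjusted p under 0.05, the 3 of smallest p in each direction, and 3 testis genes; 9 other genes were named. Members and lists were chosen with earlier results of these data known. Alternatives were a pseudocount of 0.1, no filter, a mean of at least 1 FPKM, quantile normalization, median centring, no trend, array weights, the exact test per gene, and leaving out each mouse.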

Additional observations from a re-analysis of the deposited data

Results flagged for a closer look

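Hist1h1t, the testis linker histone, was listed at 0.157 FPKM in the control library WT_220 and at 0 in the other 3 controls, so the 1 value lay apart from an otherwise empty group. Among the 33 groups of 4 controls of named genes and family sums, 1 was set apart in this way. Chance alone sets apart about 1 in 20 groups of continuous values. That rate does not apply here, since any group with 1 value above 0 and 3 at 0 passes the rule by its form. The pattern is not particular to Hist1h1t: over all 68 members, 58 had controls that were not all equal, and 11 of them, Hist1h1t included, had 1 control above 0, at 0.1497 to 1.78 FPKM, and the other 3 at 0.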

How the results depend on the processing

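No member passed an adjusted p under 0.05 under any alternative run. The count of members with an unadjusted p under 0.05 and a higher level after deletion, 1 as reported, was 0 with a pseudocount of 0.1, with a mean of at least 1 FPKM (11 members tested), with quantile normalization and with the exact test per gene, 2 without a filter, 4 with array weights and 0 to 3 when a mouse was left out. The count lower, 0 as reported, was 1 with array weights (Hist3h2a) and 0 to 1 when a mouse was left out (Hist3h2a without KO_214, Hist3h2ba without WT_213). Over all 14151 genes tested, 71 were higher and 141 lower as reported. Leaving out a mouse gave 45 to 354 higher and 70 to 410 lower. Higher genes numbered 68 with a pseudocount of 0.1, 66 of 13133 with a mean of at least 1 FPKM and 102 with quantile normalization. Without a filter they numbered 140 of 19643. Members with all Med23 CKO values above the controls, 1 as reported, fell to 0 with quantile normalization and numbered 1 to 5 when a mouse was left out. Those below, 0 as reported, numbered 0 to 2. With fewer libraries, groups of any gene lie apart more often by chance. The share over all genes is not given for these alternatives, so the counts cannot be read as a result about the members. Array weights, which gave 193 higher and 887 lower genes over the whole table, turned Hist1h1c to -0.084, Hist1h3c to -0.20 and H3f3b to -0.029. Leaving out 1 mouse at a time gave log2 ratios of -0.67 to 0.95 for the H1 sum, and log2 fold changes of -0.71 to 0.69 for Hist1h1c, -0.92 to 0.51 for Hist1h2bc, -0.60 to 0.13 for Hist1h2be, -0.36 to 0.66 for Hist1h3c, -1.33 to 0.054 for Hist1h4h, -0.38 to 0.27 for Hist1h4i, -0.16 to 0.35 for Hist1h4k, -0.50 to 0.34 for Slbp, -0.064 to 0.17 for Npat, -0.035 to 0.29 for Casp8ap2, -0.60 to 0.18 for H1f0, -1.71 to 0.15 for H2afx, -0.86 to 0.48 for H2afz, -0.22 to 0.16 for H3f3a and -0.030 to 0.071 for H3f3b. Of 219 values of named members under an alternative, 194 kept direction and side of the threshold and 13 changed sign; the cause was not tested. No paired analysis was possible, since the sample labels do not give the litter of each mouse. Differences between litters were therefore not modelled.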
